A study of Mus musculus with 2 samples.

Results

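The 69 genes described here are the semaphorins of classes 3 to 7, the plexins, the neuropilins, the ephrins and their Eph receptors, the netrins with DCC and the UNC5 receptors, and the Slits with the Robo receptors. They were picked by symbol alone from the 21938 protein-coding genes of the GENCODE mouse annotation, and no measured value entered this rule. Earlier results of these data were known when the set was chosen. The data are DNase-seq, in which nuclei are cut with the nuclease DNase I and the cut ends are sequenced, so that stretches of open chromatin appear as peaks. The tissue was frontal cortex of female B6CASTF1/J mice aged 25 days, an F1 hybrid of the B6 and CAST strains, as 1 group of 2 libraries with no treatment and no contrast. The labels call the libraries biological replicates 1 and 2 and list separate biosamples under 1 donor identifier. Nothing says that they came from separate animals, so the spread between them may be technical. The library of replicate 1 held 85603 peaks and that of replicate 2 held 87847; the sequencing depth is not given in the sources used here. Since there is 1 group, no test between conditions was possible, and the members are described beside all protein-coding genes.

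Axon guidance cues steer growing axons by attraction or repulsion, and many of them are also used later at dendrites, spines and synapses. Semaphorins signal through plexins, with neuropilins as co-receptors for most of the secreted class 3 members, and ephrins signal in both directions with the Eph receptor tyrosine kinases. Netrins attract axons through DCC and repel them through UNC5 receptors, and Slits repel axons through Robo receptors.

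The tissue label was checked with marker genes. All pan-neuronal (5 of 5), excitatory (7 of 7) and inhibitory neuron markers (4 of 4) had a promoter peak in both libraries. Genes with a similar number of CpG dinucleotides at the 5' end gave 68.3%, 64.0% and 70.7%. So did 3 of 5 astrocyte and 3 of 5 oligodendrocyte markers, where such genes gave 52.9% and 59.3%. The count was 1 of 2 for their precursors (such genes 56.4%), 1 of 4 for microglia (30.2%) and 1 of 4 for endothelial cells (66.6%). The glial counts were thus near this background. None of 8 markers of other tissues, among them Alb and Myh6, had a promoter peak in either library, where such genes gave 44.3% in both.

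A gene counts here as open when each library had a peak touching the window from 1 kb before to 1 kb after any annotated transcription start site of that gene. Of the 69 members, 59 (85.5%) were open, beside 61.5% of all protein-coding genes. Guidance genes carry more CpG dinucleotides at their 5' ends than most genes, with a median of 60 in 1 kb against 41 over all genes, and CpG-rich promoters are usually open in any tissue. When each member was set beside the other genes in the same of 10 bins of CpG count, 81.9% would be open, 3.59 percentage points below the members' share. This difference turned negative, to -4.96 points, with the shorter and stricter peak list of each library, which left 49 members open. It also turned negative with a promoter of 500 bp on each side and with only the annotated 5' end as start site, so its direction depended on the setting.

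The 2 libraries gave nearly the same set. In replicate 1, 63 members (91.3%) had a promoter peak, beside 64.1% of all genes. In replicate 2, 59 (85.5%) did, beside 62.9%. The promoter values of the 59 open members, replicate 1 over replicate 2 on the log2 scale, had a median of -0.08 and an SD of 0.34, beside -0.15 and 0.31 over all open genes. No open member differed by more than 2-fold between the libraries, and 35 of the 59 were higher in replicate 2, beside 68.8% of all open genes.

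The level at which guidance promoters were open was low for open genes. The promoter value of a gene is the authors' read-depth normalized signal of its strongest promoter peak, on a scale that is not stated. The median over the 59 open members was 1.38, beside 2.34 over all 13489 open genes. Only 13 of the 59 (22.0%) lay above the median of all open genes, and 10 (16.9%) lay above the median of open genes in their own CpG bin. Only Ephb3 and Efnb2 passed the 90th percentile of all open genes, 4.89, and 6 members (10.2%) lay under the 10th percentile, 0.744. The median kept below that of all open genes in either library alone, at 1.34 in replicate 1 and 1.39 in replicate 2. In bulk tissue, fewer cells with an open promoter and a less open promoter in each cell cannot be told apart.

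**Figure D1:**
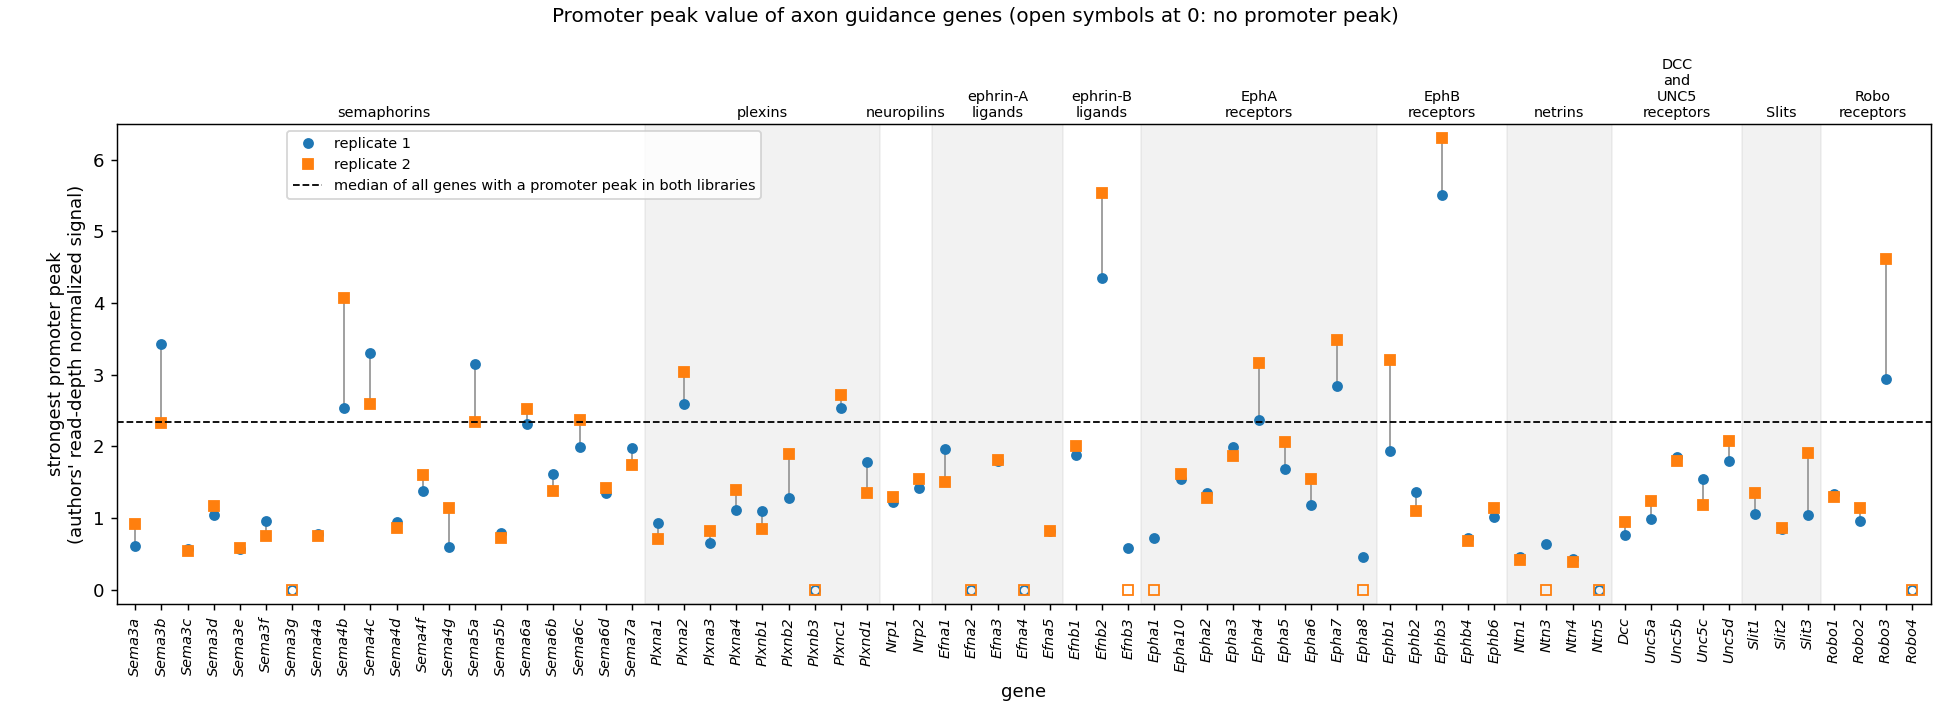
The strongest promoter peak of each of the 69 members (x axis, grouped by subfamily) in replicate 1 (circles) and replicate 2 (squares), as the authors' read-depth normalized signal (y axis), with open symbols at 0 where no promoter peak was called. The dashed line is the median of all open genes, 2.34; most members lie below it, and Ephb3 and Efnb2 stand highest.

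The strongest guidance promoter was that of Ephb3, a receptor tyrosine kinase for the membrane-spanning ephrin-B ligands. Its value was 5.50 in replicate 1 and 6.30 in replicate 2. Efnb2, an ephrin-B ligand, followed with 4.35 and 5.53, and in both libraries these genes were above every other member. Robo3, a divergent Robo receptor known from commissural axons of the hindbrain and spinal cord, had 2.94 and 4.61. In replicate 2 its value came close to that of Efnb2, and its 2 values differed more than those of most members. This peak lies within 1 kb of an internal start site but not within 500 bp of one, so with promoters of 500 bp on each side Robo3 was not open. The peak touching the 1 kb on either side of the annotated 5' end had 0.768 and 0.782, and its region was centred 1030 bp downstream of that end. Sema4b, a membrane-bound semaphorin, had 2.54 and 4.07. The DNA of these 4 strongest promoter peaks is printed to show the open sequence and the bases inside footprints. Each run is the plus strand of mm10, 5' to 3', restricted to the part outside annotated UTRs and to 300 bases. Capitals mark bases inside a footprint in both libraries, a short protected stretch called by the authors within open chromatin. The runs lie at chr16:21204441-21204740 (164 bp upstream of the annotated 5' end of Ephb3), chr8:8661243-8661440 (100 bp upstream of that of Efnb2), chr9:37430681-37430860 (2.475 kb downstream of that of Robo3) and chr7:80187041-80187260 (310 bp downstream of that of Sema4b).
Ephb3: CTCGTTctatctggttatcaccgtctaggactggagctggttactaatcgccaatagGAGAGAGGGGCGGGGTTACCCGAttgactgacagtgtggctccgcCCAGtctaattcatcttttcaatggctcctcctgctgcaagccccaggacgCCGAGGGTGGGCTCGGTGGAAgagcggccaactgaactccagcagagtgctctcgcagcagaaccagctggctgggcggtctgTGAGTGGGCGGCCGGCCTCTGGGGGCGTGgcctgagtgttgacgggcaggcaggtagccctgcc
Efnb2: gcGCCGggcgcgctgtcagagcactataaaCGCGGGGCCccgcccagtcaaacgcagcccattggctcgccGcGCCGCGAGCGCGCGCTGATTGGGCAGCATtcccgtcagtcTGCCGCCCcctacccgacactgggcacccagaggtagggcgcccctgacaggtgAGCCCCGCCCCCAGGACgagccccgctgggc
Robo3: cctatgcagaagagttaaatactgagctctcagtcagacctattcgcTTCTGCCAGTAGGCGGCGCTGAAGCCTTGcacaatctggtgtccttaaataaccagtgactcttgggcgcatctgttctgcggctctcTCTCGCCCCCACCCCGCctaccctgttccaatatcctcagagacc
Sema4b: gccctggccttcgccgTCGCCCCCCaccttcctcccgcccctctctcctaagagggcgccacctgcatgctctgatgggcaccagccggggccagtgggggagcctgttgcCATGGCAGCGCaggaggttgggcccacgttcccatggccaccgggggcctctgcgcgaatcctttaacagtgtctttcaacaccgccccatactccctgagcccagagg

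In the printed runs, footprints covered 83 of 300 bases at Ephb3, 68 of 198 at Efnb2, 46 of 180 at Robo3 and 20 of 220 at Sema4b. The runs of Ephb3 and Efnb2 held the SP-type motif GGGGCGGGG on 1 of the strands. That of Efnb2 also held the NF-Y-type motif CCAATCA and the CTCF-type motif AGGGGGCG. The Robo3 run held the NeuroD-type E-box CAGATG and the Sema4b run the RFX-type motif GTTGCCATG. The G+C content was 61.7% at Ephb3, 73.2% at Efnb2, 53.9% at Robo3 and 67.7% at Sema4b. The Robo3 run is the least GC-rich of the 4 and lies in an intron, near an internal annotated start site. A motif match is a description of the letters and not evidence that a factor was bound.

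Among the ligands, 19 of 20 semaphorins (95.0%) were open, beside 79.0% given by their CpG bins. Sema4b was followed by Sema4c with 3.30 and 2.59 and by Sema3b, a secreted class 3 member, with 3.43 and 2.32. Sema5a, a transmembrane semaphorin with thrombospondin repeats, had 3.15 and 2.34. These 3 semaphorins were higher in replicate 1, and their order against Sema4b changed between the libraries. Sema6a and Sema6c, transmembrane members of class 6, had 2.32 and 2.52, and 1.99 and 2.37. Class 3 stood lowest among the classes with more than 2 members, with a median of 0.810 over its 6 open members, beside 1.20 over the 6 of class 4 and 1.84 over the 4 of class 6. Sema3c had 0.576 and 0.537 and Sema3e, which signals through plexin-D1, had 0.576 and 0.582. They stood at the 4.54th and 5.23rd percentile of all open genes, and their libraries hardly differed.

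Ephrin ligands were split. Of the ephrin-A genes, whose products are held on the membrane by a lipid anchor, 3 of 5 were open, beside 92.8% given by their CpG bins. Their values ran from 0.818 for Efna5 to 1.81 for Efna3. Of the ephrin-B genes 2 of 3 were open in both libraries, beside 93.2% given by their bins. These were Efnb2 and Efnb1, the latter with 1.88 and 2.01. Netrins were the least open subfamily, 2 of 4, beside 69.0% given by their bins. The open netrins were the weakest of all 59 open members, Ntn4 with 0.435 and 0.394 and Ntn1, the classic attractant of commissural axons, with 0.463 and 0.417. The peak that opened Ntn1 was not at the same place in the libraries: it lay 13.9 kb downstream of the annotated 5' end in replicate 1 and 14.8 kb downstream in replicate 2, near an internal start site. Neither netrin was open with the stricter list, with promoters of 500 bp on each side, or with the annotated 5' end alone. All 3 Slit genes were open, beside 93.5% given by their bins, with means over the libraries from 0.852 for Slit2 to 1.48 for Slit3.

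Among the receptors, 8 of 9 plexins and both neuropilins were open, beside 75.5% and 91.0% given by their CpG bins. Plxna2, a plexin-A receptor for class 6 semaphorins and with neuropilins for class 3, had 2.59 and 3.04, and Plxnc1, the receptor of Sema7a, had 2.54 and 2.71. These were the only plexins above the median of all open genes, and their libraries differed little. Nrp1 had 1.23 and 1.29 and Nrp2 had 1.42 and 1.55, so neither co-receptor reached that median.

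The Eph receptors, with 7 EphA and 5 EphB genes among the 59 open members, took 4 of the 14 highest places. Epha7 had 2.84 and 3.49, Epha4, which binds ephrins of both classes, had 2.37 and 3.17, and Ephb1 had 1.94 and 3.21. All 3 were higher in replicate 2. All 5 EphB receptors were open, beside 93.8% given by their CpG bins. Ephb4, a receptor known from blood vessels that binds ephrin-B2, was lowest among them at 0.718 and 0.679. Of the EphA receptors 7 of 9 were open, beside 85.8% given by their bins, with means from 1.31 for Epha2 to 3.17 for Epha7. DCC and the UNC5 receptors were open in 5 of 5, beside 90.4% given by their bins. Their values were modest, with means from 0.855 for Dcc to 1.94 for Unc5d. Of the Robo receptors 3 of 4 were open, beside 54.2% given by their bins, Robo1 and Robo2 with means of 1.32 and 1.05.

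Ligands and receptors as classes differed little. Of 35 ligand genes 29 (82.9%) were open and of 34 receptor genes 30 (88.2%), with median values of 1.38 and 1.43. Their CpG bins gave 82.3% and 81.5%. By signalling system, 29 of 31 semaphorin, plexin and neuropilin genes were open (93.5%), where their CpG bins gave 78.8%, and 17 of 22 ephrin and Eph genes (77.3%), where their bins gave 90.2%. These are small counts. The gap of the Eph system came from replicate 2, with 17 of 22 genes (77.3%) beside 91.0% there, and in replicate 1 alone 20 of 22 (90.9%) had a promoter peak, beside 92.3%. The semaphorin system had 29 of 31 in each library. The stricter list ended the full count of EphB receptors, leaving 3 of 5 open, and that of DCC and the UNC5 receptors, leaving 3 of 5.

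A promoter peak in replicate 1 only was called for 4 members: Efnb3 with 0.582, Epha1 with 0.723, Epha8 with 0.463 and Ntn3 with 0.639. Over all protein-coding genes 14064 (64.1%) had a promoter peak in replicate 1, 13792 (62.9%) in replicate 2 and 13489 (61.5%) in both. All 4 values lay under the 10th percentile of all open genes. In the authors' deposited table of cut-rate false discovery rates, which lists positions of at most 0.05, the promoter of Efnb3 held 330 bp of such positions in replicate 1 and 10 bp in replicate 2. Epha1, Epha8 and Ntn3 held 128, 200 and 105 bp in replicate 1 and none in replicate 2.

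No promoter peak was called in either library for Sema3g, Plxnb3, Efna2, Efna4, Ntn5 and Robo4, 6 of 69 members, beside 34.5% of all protein-coding genes. Sema3g, Efna2, Efna4 and Robo4 held no listed position of the cut-rate table at their promoters in either library. Plxnb3 held 28 bp in replicate 1 and none in replicate 2. Over all 7571 genes without a promoter peak in either library, 254 (3.35%) held a listed position in either library. In both libraries 30 (0.396%) did, so holding none is usual for such genes. Efna2, an ephrin-A ligand known from the retinotectal map, had 108 CpG at its 5' end, in the bin where 95.4% of other genes were open. Efna4 had 58 CpG, in a bin with 91.1% open, whereas Sema3g, Plxnb3, Ntn5 and Robo4 had 14, 8, 15 and 11 CpG and lay in bins where at most 26.3% of other genes were open. The closest near miss was Ntn5: its promoter held 24 bp and 51 bp of listed positions, and a region called in both libraries, with 2.06 and 2.39, lay with its centre 1.101 kb upstream, just outside the window. Robo4 is known as a receptor of vessel endothelium. Of the 4 endothelial markers checked, Flt1 had 0.554 and 0.440, Cldn5 had 0.428 in replicate 2 only, and Pecam1 and Cdh5 had none; the part of endothelial cell number in the Robo4 value was not tested.

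CpG content split the members in the plot of open share by CpG count. In the upper 5 bins 51 of 57 members were open (89.5%), beside 92.3% given by the other genes of the same bins. In the lower 5 bins 8 of 12 were open (66.7%), beside 32.7%. The 8 low-CpG members that were open are Sema3a, Sema3b, Sema4a, Plxna2, Epha10, Ntn1, Dcc and Robo1. Several of these have their strongest peak away from the annotated 5' end at which CpG was counted. With that 5' end as the only start site, 4 of the 12 (33.3%) were open, beside 22.3%, and with the stricter list 5 of 12 (41.7%) were, beside 26.1%.

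**Figure D2:**
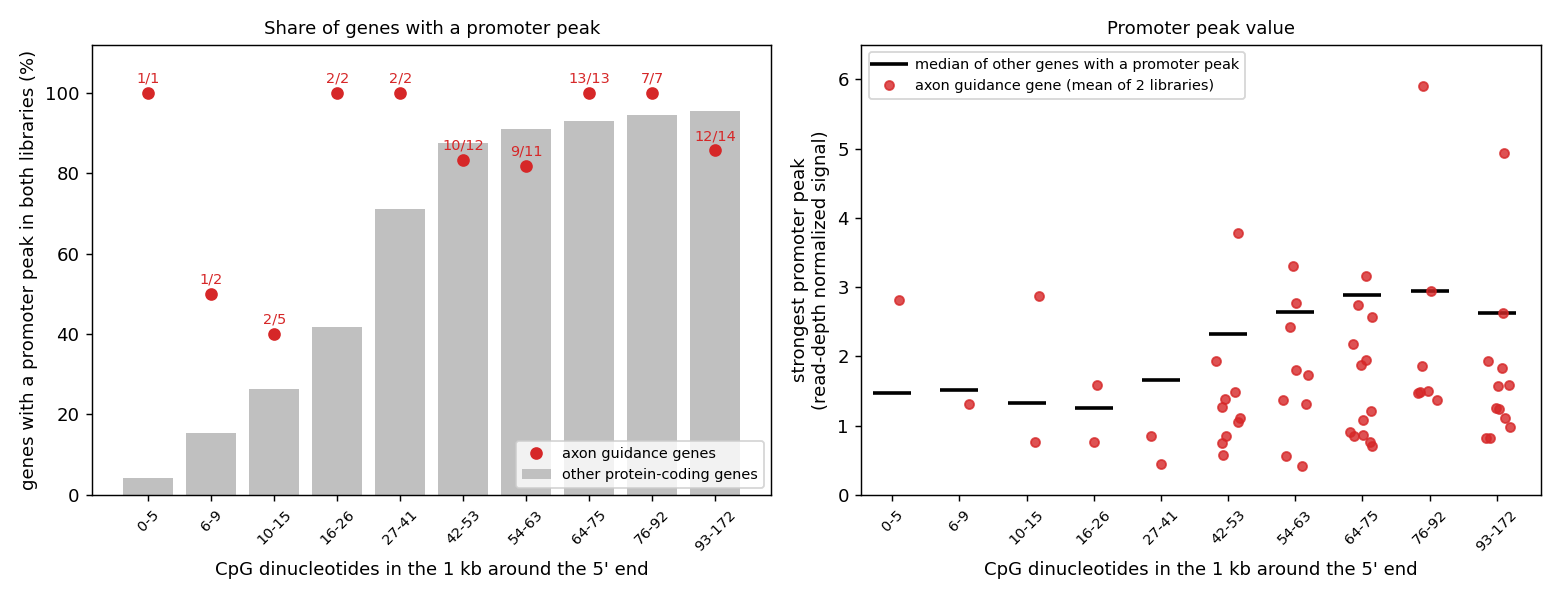
Left, the share of open genes (y axis, percent) in 10 bins of CpG count in the 1 kb around the 5' end (x axis), for other protein-coding genes (bars) and members (points, with open members over members in the bin). Right, the mean promoter value of each open member (points, read-depth normalized signal) and the median of other open genes in the bin (lines): most members lie under the line of their bin.

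All 32 members of at least 100 kb were open, beside 86.9% of all genes of that length, and 27 of 37 shorter ones (73.0%), beside 58.2%. With the stricter list 28 of the 32 were open, without Sema4d, Ntn1, Ntn4 and Dcc, and with the 5' end as the only start site 29 were, without Sema3a, Ntn1 and Ntn4. All 10 members that were not open in both libraries were shorter than 100 kb. The long members did not have stronger promoters, with a median value of 1.29, beside 1.58 for the shorter open members.

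In some guidance genes the strongest promoter peak lay at or near an internal annotated start site, which shows open chromatin there and not that transcription began there. In 14 of the 59 open members (23.7%) the strongest promoter peak of replicate 1 did not overlap the 1 kb on either side of the annotated 5' end, beside 12.2% of all open genes. For Ntn4, 1 of the 14, the strongest peak of replicate 2 did lie at the 5' end. The members have more annotated start sites, with a median of 4 against 3 over all genes. In Plxnc1 the strongest peak lay 115 kb inside the gene with 2.54 and 2.71, where the 5' end itself had 1.21 and 1.15. In Robo1, a gene with several promoters, it lay 355 kb inside with 1.34 and 1.30, where the 5' end had 0.458 and 0.491. In Slit3 it lay 57.1 kb inside with 1.05 and 1.91, beside 0.480 and 0.537 at the 5' end. These 3 genes had the stronger peak at the same internal place in both libraries. In Sema6d the internal site lay 520 kb from the 5' end and had 1.34 and 1.42, beside 0.723 and 0.645. In Sema3a, the repellent that signals through Nrp1 and plexin-A receptors, the site lay 274 kb inside, and no peak was called at the 5' end in either library. Sema3b also had no peak at its annotated 5' end, and its strongest promoter peak lay 7.01 kb downstream. Sema5a, Sema4c and Plxna2 had the stronger peak 1.37, 1.11 and 1.59 kb downstream of the 5' end in replicate 1, next to a weaker one at the 5' end. With the annotated 5' end as the only start site, Sema3a, Sema3b, Sema4a, Ntn1 and Ntn4 were no longer open.

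No open member shared its strongest promoter peak with another protein-coding gene: in 0 of 59 did that peak lie within 1 kb of the start site of another such gene, beside 19.9% of all open genes.

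Peaks were then counted in each gene and the 10 kb on either side of it. The members held 606 peaks in replicate 1 and 629 in replicate 2. Other genes of the same of 20 bins of length would give a mean of 502, so the members held 1.23 times as many. These counts include promoter peaks, and the background is matched for length only, not for CpG or open promoters. More members (85.5%) than all genes (61.5%) had an open promoter, and the part of this in the ratio was not tested. Setting each member beside the 100 other genes nearest to it in length, a choice made after seeing the data because the bin of the longest genes is wide, gave 1.20 times. Of the 69 members 43 (62.3%) held more peaks than the mean of their length bin, beside 40.3% of all genes. The excess was in the shorter members: those under 100 kb held 1.73 times the number of their bins and those of at least 100 kb held 1.08 times. The 15 members of at least 300 kb held 0.979 times, and 0.838 times the number in the genes nearest in length.

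**Figure D3:**
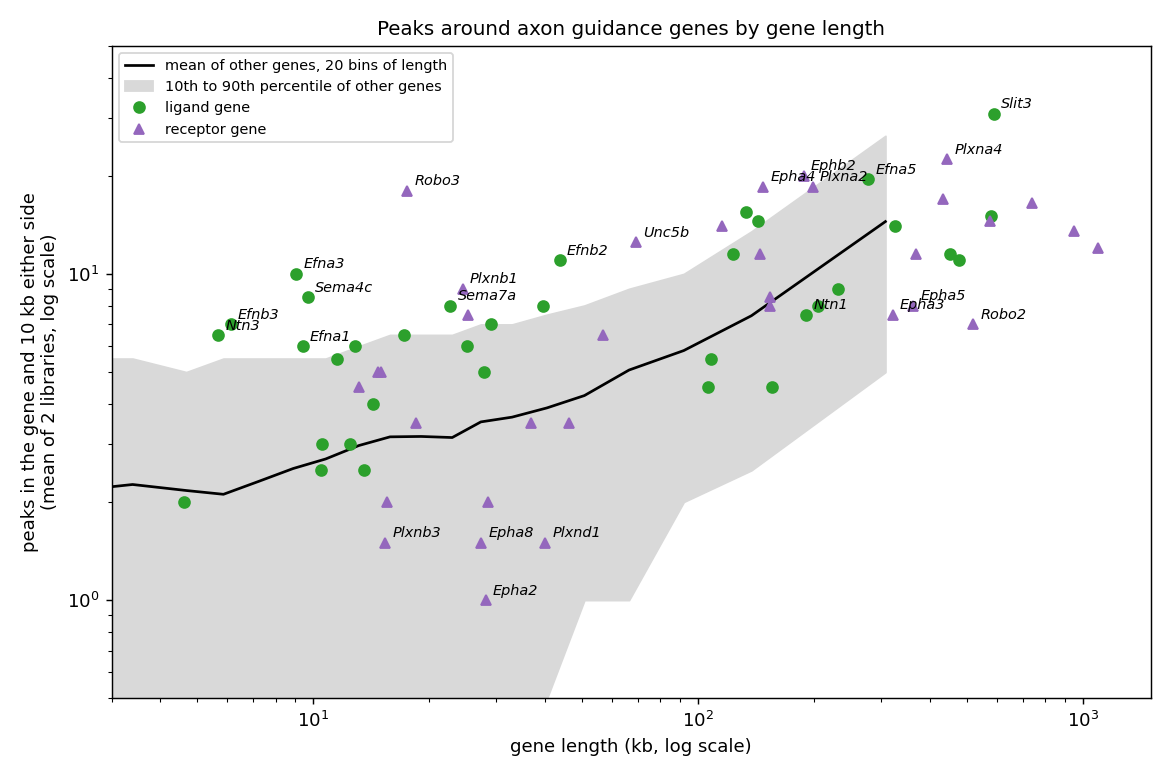
Peaks in each member and 10 kb on either side (y axis, mean of 2 libraries, log scale) against gene length (x axis, kb, log scale) for ligand genes (circles) and receptor genes (triangles). The line is the mean and the band the 10th to 90th percentile of other protein-coding genes in 20 bins, drawn at the median length of each bin; Robo3 and short ligand genes such as Efna3 and Sema4c lie above the band.

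By subfamily, the largest ratio to the length bins was that of the ephrin-B ligands, 2.68, followed by the neuropilins at 1.71, and the ephrin-A ligands and the Slits at 1.64 each. EphA receptors held 0.919 times the number of their bins and 0.833 times that of the nearest genes. For the netrins the direction depended on the background, 0.856 by bins and 1.06 by the nearest genes, and for DCC and the UNC5 receptors it did as well, 1.08 and 0.876.

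The most peaks lay in Slit3, 32 in replicate 1 and 30 in replicate 2, a Slit gene of 587 kb. Plxna4, a plexin-A receptor of class 3 and class 6 semaphorins, held 20 and 25. Ephb2, which acts at glutamatergic synapses, held 17 and 23. These counts differed between the libraries by up to 6 peaks. Efna5 held 17 and 22, Plxna2 18 and 19, and Ephb1 19 and 15. Among members of at least 10 kb, the ratio to the length bin was highest in Robo3 (5.67), Plxnb1 (2.86), Efnb2 (2.83), Sema7a (2.54) and Epha4 (2.49). It was lowest in Epha2 (0.284, with 1 peak in each library), Plxnd1 (0.386), Epha8 (0.426), Plxnb3 (0.474) and Robo2 (0.484), a 520 kb gene with 8 and 6 peaks. All 5 genes with the lowest ratio encode receptors.

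The counts of Robo3, Epha4 and Plxnb1 include many very weak peaks, those below the 5th percentile of their library, 0.243 in replicate 1 and 0.194 in replicate 2. Robo3 held 8 peaks in replicate 1 and 28 in replicate 2, and Epha4 held 12 and 25. Of those in replicate 2, 14 at Robo3 and 13 at Epha4 were very weak, beside 6.04% of all members' peaks, and in replicate 1 4 at Robo3 and none at Epha4 were. At Plxnb1 4 of 9 peaks in replicate 1 and 2 of 9 in replicate 2 were very weak, and 3 regions were called in both libraries. Robo4, the neighbour of Robo3, held 1 and 8, of which 3 were that weak, and the windows of these neighbours share peaks. Counting regions called in both libraries, Robo3 and Epha4 held 7 each and Robo4 held 1, but 4 of the 7 at Robo3 had means of only 0.0852 to 0.255. Without very weak peaks in any gene, a setting added after seeing the data, the ratio was 2.91 in Robo3, 1.97 in Plxnb1, 1.68 in Epha4 and 1.24 over all members. Without Robo3, Robo4 and Epha4 the members held 1.18 times the number of their length bins. The cause of these weak peaks was not tested.

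Peaks of the libraries were merged into regions, and 402 regions called in both lay in or within 10 kb of a member. Of these 146 lay within 1 kb of the start site of a protein-coding gene, the member or a neighbour, and 256 did not. Of the 256 non-promoter regions 71.1% were intronic, 12.5% upstream, 8.59% downstream and 7.81% exonic. Their strength was ordinary: the median value was 0.742, beside 0.750 over all 38289 non-promoter regions, and 7.03% passed the 90th percentile of the latter, 1.75. The mean number of footprints per region was near that elsewhere, 2.34 in replicate 1 and 2.19 in replicate 2, beside 2.41 and 2.23. At least 1 footprint lay in 86.7% of the members' regions in replicate 1, beside 90.6% of all, and in 90.6% in replicate 2, beside 91.3%. Of the 69 members 58 had at least 1 non-promoter region called in both libraries and 11 had none. The same share over all genes is not given here. The members are longer than most genes, with a median of 46.3 kb against 17.4 kb, so this count is not read against other genes. By number, Slit3 had 17, Plxna4 15, Ephb2 14, Plxna2 12 and Efna5 10.

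**Figure D4:**
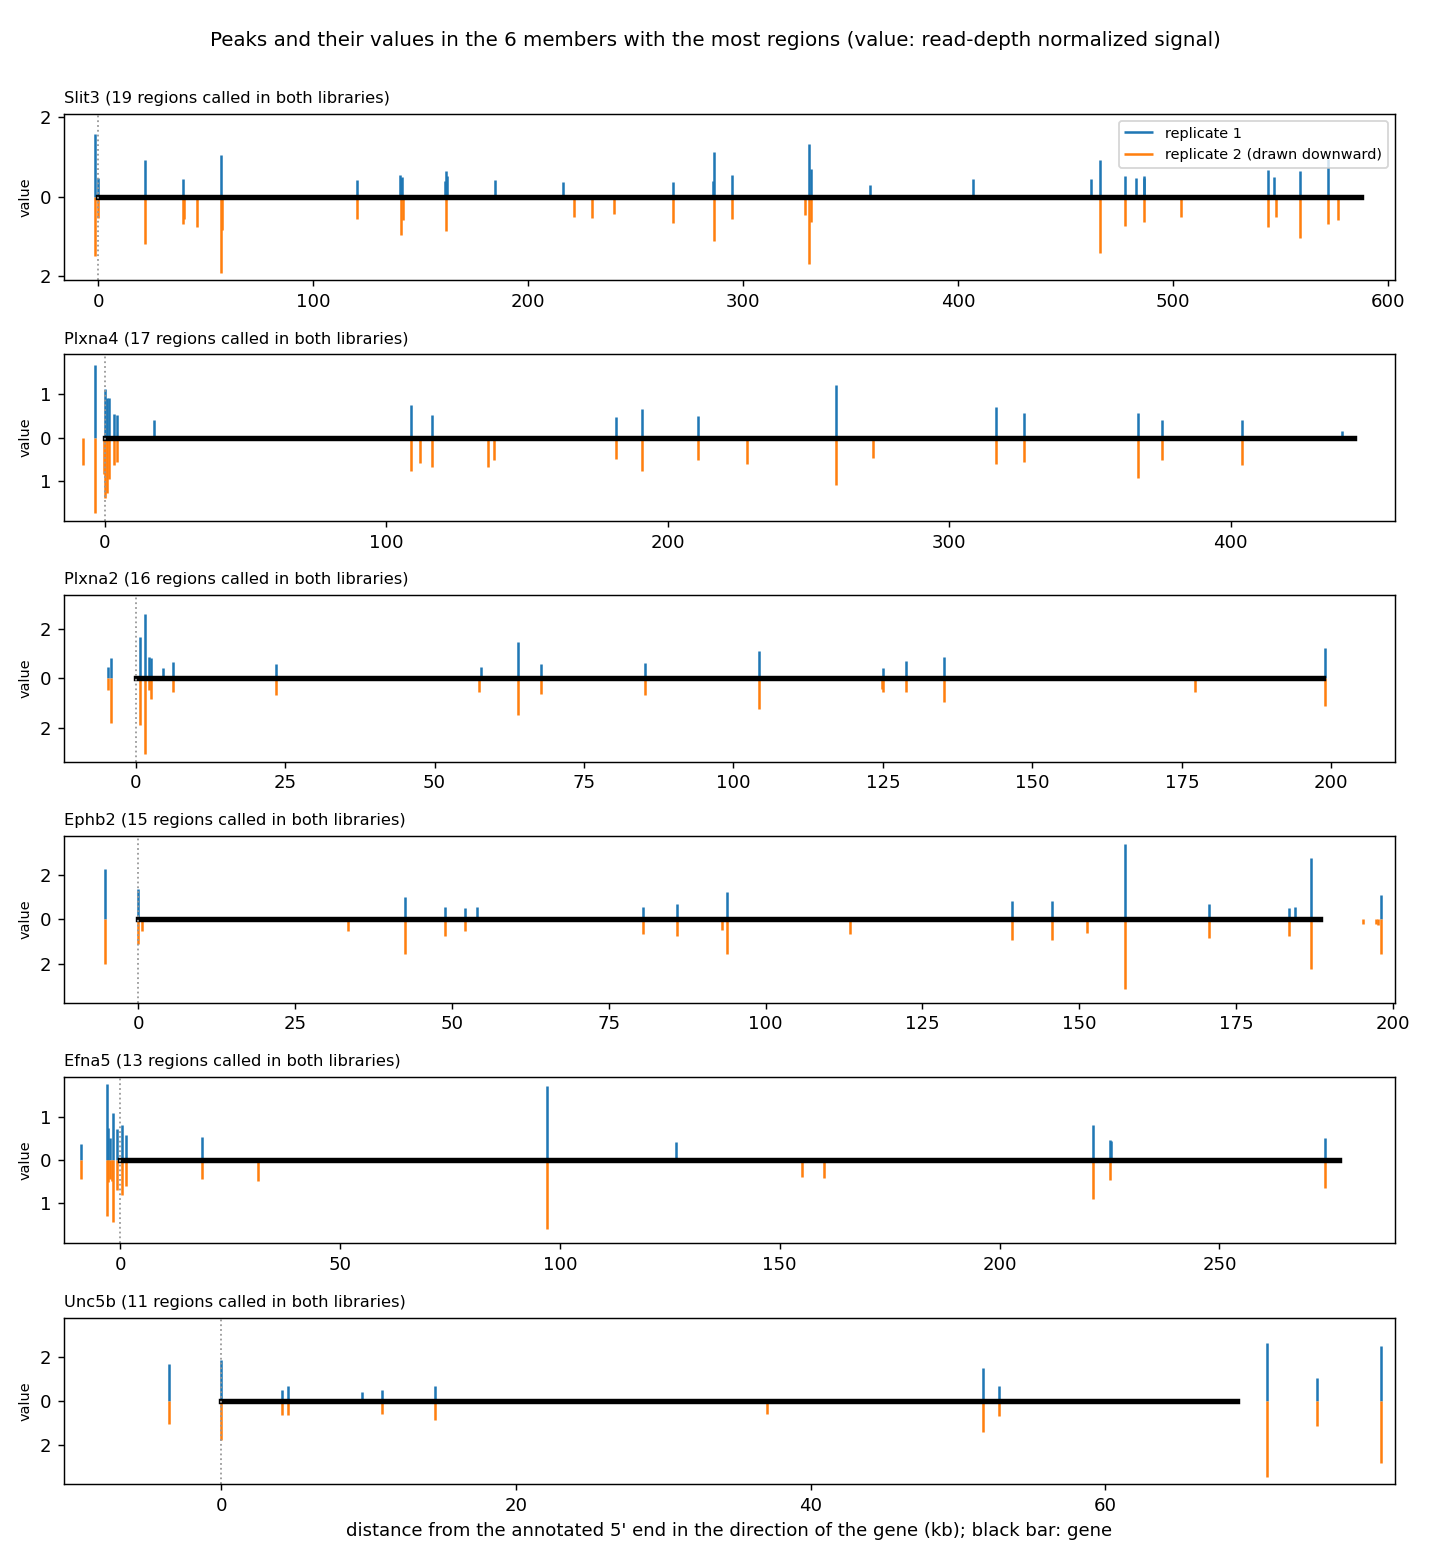
Peaks in the 6 members with the most regions called in both libraries, by distance from the annotated 5' end (x axis, kb) and value (y axis, read-depth normalized signal), with replicate 1 drawn upward and replicate 2 downward. In Slit3 19 regions are called in both libraries, and its stronger peaks stand inside the gene as well as near the 5' end; in Ephb2 the strongest lies 157 kb inside.

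The strongest non-promoter regions are printed to show which open sequences near guidance genes stood out most. The strongest, 3.602 kb upstream of the annotated 5' end of Sema3b at chr9:107612721-107612940, had 5.23 and 5.36 and ranked above 99.7% of all non-promoter regions. The next lay 1.363 kb upstream of Epha4 at chr1:77516341-77516560, within an exon of the long noncoding RNA gene Gm28386, with 3.98 and 4.19. In Ephb2 an intronic region 157 kb from the 5' end, at chr4:136678581-136678740, had 3.38 and 3.13. The region downstream of Unc5b at chr10:60760481-60760700 had 2.63 and 3.47, that 6.149 kb upstream of Sema4a at chr3:88467241-88467420 had 2.78 and 2.46, and that in an intron of Efna3 at chr3:89316921-89317100, where the antisense gene Gm15998 also lies, had 2.10 and 3.07. Averaged over the libraries, each of these 6 regions was stronger than the strongest promoter peak of its own gene. Each run is the plus strand of mm10, 5' to 3', and capitals again mark bases inside a footprint in both libraries.
Sema3b: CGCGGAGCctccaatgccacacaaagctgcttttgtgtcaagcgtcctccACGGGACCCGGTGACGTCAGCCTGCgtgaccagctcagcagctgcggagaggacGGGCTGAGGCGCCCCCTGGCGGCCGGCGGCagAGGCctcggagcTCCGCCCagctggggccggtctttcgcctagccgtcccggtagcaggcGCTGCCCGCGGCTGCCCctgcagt
Epha4: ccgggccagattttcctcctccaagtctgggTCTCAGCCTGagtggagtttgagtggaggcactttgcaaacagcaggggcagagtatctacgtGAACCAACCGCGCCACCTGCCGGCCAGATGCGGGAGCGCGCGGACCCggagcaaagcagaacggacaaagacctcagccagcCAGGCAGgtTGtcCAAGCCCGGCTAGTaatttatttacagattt
Ephb2: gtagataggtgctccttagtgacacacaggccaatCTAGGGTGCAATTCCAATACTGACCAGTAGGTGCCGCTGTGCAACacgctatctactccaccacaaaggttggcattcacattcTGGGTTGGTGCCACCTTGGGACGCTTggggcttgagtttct
Unc5b: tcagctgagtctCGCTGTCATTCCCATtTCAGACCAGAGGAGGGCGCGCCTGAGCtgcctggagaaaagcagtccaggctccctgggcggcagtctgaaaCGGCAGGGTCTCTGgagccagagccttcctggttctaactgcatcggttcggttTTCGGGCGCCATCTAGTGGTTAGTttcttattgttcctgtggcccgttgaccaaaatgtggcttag
Sema4a: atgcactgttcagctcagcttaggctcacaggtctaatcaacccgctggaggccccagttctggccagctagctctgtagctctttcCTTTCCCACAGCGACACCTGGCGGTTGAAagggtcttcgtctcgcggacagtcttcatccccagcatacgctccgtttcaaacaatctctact
Efna3: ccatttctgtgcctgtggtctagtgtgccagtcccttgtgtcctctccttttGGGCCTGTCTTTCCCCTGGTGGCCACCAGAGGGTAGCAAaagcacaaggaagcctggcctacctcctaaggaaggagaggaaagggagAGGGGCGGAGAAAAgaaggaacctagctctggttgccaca

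Footprints covered 91 of 220 bases at Sema3b, 80 of 220 at Epha4 and at Unc5b, 71 of 160 at Ephb2, 53 of 180 at Efna3 and 29 of 180 at Sema4a. The runs at Sema3b, Epha4 and Unc5b hold the 12-letter consensus of CTCF, the zinc finger protein of chromatin loops and insulators, on 1 of the strands, and all 6 runs hold it with at most 1 mismatch. The promoter runs of Ephb3, Efnb2 and Robo3 printed above also hold the consensus with 1 mismatch, and that of Sema4b does not. This motif was added after the sequences were seen. In the 200 bp around the centre of each region, searched on both strands, it lay in 31 of the members' 256 non-promoter regions (12.1%), beside 11.6% of all non-promoter regions. Strong regions held it more often everywhere: 5 of the members' 18 regions over the 90th percentile had it (27.8%), beside 29.5% of all such regions. With 1 mismatch allowed the shares were 83.3% and 60.9%. The 6 printed regions, after which the motif was added, are among the members' 18 and 256 regions. The members' shares are therefore no separate check of the motif. The Sema3b run also holds the CRE-type motif TGACGTCA, the Epha4 run the NeuroD-type E-box CAGATG and the Ephb2 run the NFI-type motif TTGGCA.

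The next strongest regions lay 2.85 kb upstream of the 5' end of Ntn3, with 2.11 and 2.78, and 4.241 kb upstream of that of Sema7a, a lipid-anchored semaphorin, with 2.38 and 2.31. Ntn3 had no promoter peak in replicate 2, so in that library its upstream region was open while its promoter was not called.

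Among 16 short motifs counted on both strands in the same 200 bp windows, the shares in members' regions were mostly near those over all regions. TTGGCA lay in 21.5% of the members' non-promoter regions, beside 17.6% of all, the AP-1 motif TGANTCA in 9.38% beside 12.5%, and CAGATG in 20.7% beside 24.4%. In the 146 promoter regions CAGATG lay in 13.7% beside 8.92%. The NRF1 motif GCGCATGCG and the YY1 motif AAGATGGCG lay in none of the promoter regions, beside 2.41% and 1.83% of all, and the ETS motif CCGGAAGT lay in 1.37% beside 4.51%. These 3 motifs are known from promoters of widely expressed genes, and at such low shares 146 regions would hold few in any case.

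Genes that work with the guidance cues, mostly carrying their signal inside the cell, had promoter values near those of all open genes. Of 59 partners, chosen by known role, 55 (93.2%) were open, beside 61.5% of all genes and 82.8% given by their CpG bins, with a median value of 2.31, beside 2.34 over all open genes and 1.38 over the open members. The highest were the kinase gene Cdk5 with 5.40 and 8.54, the adaptor gene Nck1 with 5.68 and 7.10, the small GTPase gene Rhoa with 4.20 and 8.38, and Dpysl2, a collapsin response mediator, with 4.75 and 7.19. Draxin, Flrt1 and Rtn4r, the Nogo receptor gene, had no promoter peak in either library, and Met had 0.463 in replicate 2 only.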

How the data were processed

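DNase-seq of mouse frontal cortex was taken as deposited. Per the text file that accompanies each library, everything is on mm10 and comes from the alignment of the same library, which means separate peak calls for replicates 1 and 2. The aligner, the callers with their versions, and the depth were not given in the sources used here. In the deposited peak lists column 7 holds the authors' read-depth normalized signal. The authors' footprint lists carry 1 constant, 0.01, deposited as another value and not used as a measurement. Another deposited file lists positions whose cut rate had a q-value, that is a false discovery rate, of at most 0.05. The longer of each library's 2 peak lists was the main list, the shorter a stricter alternative.

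A promoter was the 1 kb on either side of any transcription start site (GENCODE vM21, GRCm38.p6), an overlap needed 1 bp, and a promoter value is that of the strongest such peak. The CpG background is the open share of non-members in the same of 10 bins of CpG count, averaged over members; the length background is the mean peak number of non-members in the same of 20 bins of gene length. Scripts ran in Python 3.11.15 with pandas 2.3.3, numpy 2.4.6 and pysam 0.24.0, and were tested on simulated peaks. With 2 libraries, each value is given for both. The members and lists were chosen with earlier results of these data known, and list tests were not run. Values in both libraries were given for the 14 highest and 5 lowest open promoters, members open in 1 library, the 8 members with the most peaks, those of extreme ratio (5 each way, at least 10 kb) and the 8 strongest non-promoter regions; internal promoters, ephrin-B1, the neuropilins and the partners were named after their values were seen. Sequences were read from GRCm38.p6.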

Additional observations from a re-analysis of the deposited data

How the results depend on the processing

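No paired analysis was possible because the series has 1 group. The members' open count stayed within 1.5 times of 59 in every alternative run, from 49 to 64, and the number of the 11 subfamilies with a share above that of all genes stayed at 9 or 10. The difference from the CpG-standardised share was not stable: it was -4.96 points with the stricter list, -0.840 with promoters of 500 bp on each side, -0.749 with the 5' end as the only start site and 8.86 with 2500 bp, and 2.57 to 7.17 with 1 library left out. The median promoter value, main 1.38, was 1.57 with the stricter list, 1.31 with 500 bp, 1.24 with the 5' end only, 1.49 with the stronger 50% of peaks and 1.34 to 1.39 with 1 library left out. Peak numbers in and around the genes, main 617.5, were 320.5 with the stricter list, 312.5 with the stronger 50% of peaks, 972.5 with a 50 kb flank and 606 to 629 with 1 library left out. Their ratio to the length background was 1.15, 1.25 and 1.25 in those settings, 1.34 with 10 length bins, 1.19 without a flank and 1.23 in either library. Chosen after seeing the data, 100 length bins gave 1.13, the 100 genes nearest in length 1.20, leaving out Robo3, Robo4 and Epha4 1.18, and leaving out all peaks below the 5th percentile of their library 1.24. The stricter list lost 10 open members, Sema4a, Sema4d, Sema4g, Plxna1, Ephb4, Ephb6, Ntn1, Ntn4, Unc5a and Dcc. The other 49 kept the same value, because a peak that stays in the list keeps its value, so this is no check of the values. The cause of these changes was not tested. Read depth is not given, so a promoter without a peak is one not detected at this depth.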
